A study of Macaca mulatta with 22 samples.

Results

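Follicles taken 24 h after an ovulatory dose of human chorionic gonadotropin (hCG) were compared with follicles taken 12 h after it, in the rhesus macaque (Macaca mulatta). The arrays were chosen by their titles, which give the hours after hCG. They are 4 arrays at 24 h and 4 at 12 h, 8 of the 22 arrays in the series. The 6 arrays at 0 h serve to tell a new rise from a return to the starting level. The other 8 arrays, from 36 h, enter only the shared estimate of spread. In all groups, females in a natural menstrual cycle received the GnRH antagonist Acyline with 30 IU each of recombinant human FSH and LH once serum estradiol reached 100 to 120 pg/ml. The 12 h and 24 h groups then received 1000 IU of recombinant hCG, and the 0 h group was taken without it. The ovary was removed, and the large dominant follicle was separated, frozen and measured whole, 1 follicle per array. The labels do not say which follicles came from separate animals, and p-values then reflect only how far these follicles differ from each other. Most descriptions in the labels speak of the developing corpus luteum, while titles and tissue fields say follicle.

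As background, hCG acts on the receptor of luteinizing hormone in theca and granulosa cells, and sets off ovulation and the change of these cells into luteal cells. Early steps are a burst of transcription factors and EGF-like ligands. Later steps are a shift of steroid output from estrogen and androgen to progesterone, the remodelling of the follicle wall and the exit from the cell cycle. The interval studied here lies between the early response and rupture. In whole follicles, fewer cells of a type and less RNA per cell cannot be told apart.

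Levels are log2 array intensities as deposited, where a difference of 1 stands for 2-fold. Array medians lay between 4.71 and 4.74 on this scale, and levels below them are uncertain in size. Correlations between arrays ran from 0.892 to 0.911 within 12 h, from 0.899 to 0.908 within 24 h and from 0.883 to 0.901 between the groups, and 0 of the 28 pairs were identical. A steroidogenic and a granulosa gene were looked at beside the tissue label. No other tissue was compared, so their levels cannot tell follicle from corpus luteum. STAR, which carries cholesterol into mitochondria, lay between 12.82 and 13.46 in these 8 follicles, and the inhibin subunit gene INHA between 8.61 and 11.59. The 3' minus 5' index, the mean log2 excess of the 3' over the 5' control probe sets of ACTB and GAPDH, rises as RNA breaks down. It was 0.702 ± 0.102 (SD, n = 4) at 12 h, with replicate 3 highest at 0.853, and 0.599 ± 0.0471 (n = 4) at 24 h. The difference was -0.103 (exact two-sided permutation test, p = 0.0571, where 4 arrays against 4 cannot go below 0.0286).

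Changes went both ways in nearly equal number. Of 52766 probe sets, 3628 were called in this comparison (6.88%). Those higher at the later time numbered 1937 and those lower 1691, and 650 and 531 of them changed at least 2-fold. A call is an adjusted p under 0.05 in limma with Benjamini-Hochberg adjustment, fitted on all 22 arrays. Counted by the brightest probe set of each of 14132 named genes, 825 were higher (5.84%) and 709 lower (5.02%), and the median change over all genes was 0.02. The count of 3628 was 2265 without 12 h replicate 1 and 2199 without 24 h replicate 1. Fitted on the 8 arrays alone, 189 probe sets passed. There, 30 of the 184 called probe sets named by rule kept their call, and adjusted p-values from that fit are given below as 2-group p-values. Without any one of the 8 arrays, 113 of the 184 kept their call, and none of the 203 named probe sets changed direction with a call in any setting tried. Within the fit of all arrays, 1 gene named by rule had probe sets called in opposite directions. When the fit also held the 3' minus 5' index, the calls of ADAMTS18, AHI1, APCDD1, BCL2A1, BHLHE40, CCL11, CEMIP, CTSL, EIF2S3, EIF3F, GCLM, GSTA1, HHIP, HPGD, HSD17B4, KLF4, KRT8, MMP1, MT1X, NDUFV1, ROBO2, ROBO4, RUNX1, SPHKAP and WARS1 were lost among the genes described below. "Rose" and "fell" are used below for calls in the fit of all arrays. Shares of a list are to be read beside the 5.84% higher and 5.02% lower over all genes. Those shares include dim genes, which were called less often. Of the 7979 genes whose brighter group averaged at least 6, 1394 were called in either direction, against 1534 of all 14132. A list of bright genes can thus exceed the shares over all genes by its brightness alone. Genes named for the largest changes, new highs or new lows were taken only from called probe sets without overlap between 12 h and 24 h. Their lack of overlap was thus fixed by that choice. By the brightest probe set, 1422 of the 1534 called genes did not overlap.

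**Figure D1:**
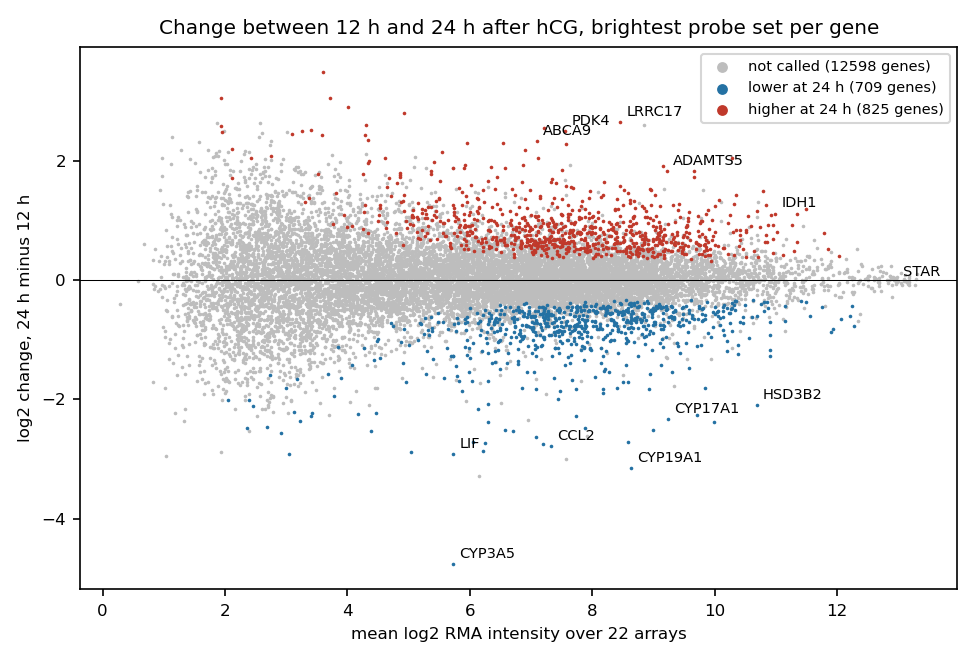
Change from 12 h to 24 h after hCG (24 h minus 12 h, log2, y axis) against the mean log2 intensity over the 22 arrays (x axis), 1 point per gene by its brightest probe set. Red points are the 825 genes called higher, blue points the 709 called lower, grey points were not called. CYP3A5 lies lowest of the called genes, and STAR, among the brightest, lies near 0.

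Genes for key enzymes of androgen and estrogen synthesis fell in this interval. The aromatase gene CYP19A1, whose enzyme turns androgens into estrogens, was at 11.15, 9.10, 9.61 and 10.64 in 12 h replicates 1 to 4 and at 5.76, 6.90, 6.87 and 8.31 in 24 h replicates 1 to 4. CYP17A1, the enzyme that theca cells need to make androgen, was at 10.44, 9.70, 8.97 and 11.51 at 12 h and 7.51, 7.26, 7.98 and 8.55 at 24 h. For both genes every 24 h follicle lay below every 12 h follicle. CYP19A1 changed by -3.16 ± 0.66 (adjusted p = 0.00637), a fall of 8.96-fold, and CYP17A1 by -2.33 ± 0.41 (adjusted p = 0.00212), 5.04-fold. Against 0 h, where CYP19A1 averaged 11.34 ± 0.85 (SD, n = 6) and CYP17A1 12.05 ± 0.40, the 24 h levels were lower by 20.8-fold (adjusted p = 0.000403) and 18.7-fold (adjusted p = 4.33e-06), so both reached a new low. The 2-group p-values were 0.0731 and 0.102.

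CYP3A5, a cytochrome P450 that hydroxylates steroids and drugs, showed the deepest fall of the named genes. It was at 9.66, 7.61, 7.33 and 10.36 at 12 h and at 2.25, 3.65, 4.68 and 5.33 at 24 h, with no overlap. It changed by -4.77 ± 0.88 (adjusted p = 0.00292, 2-group p 0.0666), and all 3 of its probe sets fell. At 24 h, replicates 1 to 3 lay below the array medians, so the size of this fall is uncertain. The 24 h level lay beside the 0 h mean of 3.86 ± 1.39, a difference of 0.12 ± 0.81 (SE) with an adjusted p of 0.968. Near-identical members of the CYP3A family can share such a probe set. Of 10 genes measured on the androgen and estrogen list, 3 fell (30%) and 1 rose (10%), and the list median was -0.06. The fallers were CYP19A1, CYP17A1 and CYP3A5, the last described above as hydroxylating steroids and drugs. HSD17B1, which makes estradiol, differed by 0.71 and was not called. The riser, HSD17B4, an enzyme that inactivates estradiol and breaks down fatty acids in peroxisomes, changed by 0.60 ± 0.16 (adjusted p = 0.0269), with overlapping groups. It lost its call without any one of 12 h replicates 1, 3 and 4 and 24 h replicates 1 to 3 (adjusted p up to 0.09), and when the fit held the 3' minus 5' index too (adjusted p = 0.0808).

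Progesterone synthesis split. HSD3B2, the enzyme that turns pregnenolone into progesterone, was at 11.84, 11.88, 11.33 and 12.65 at 12 h and 8.52, 9.93, 10.30 and 10.57 at 24 h. All 24 h follicles lay below the 12 h follicles, replicate 1 furthest, and the change was -2.10 ± 0.42 (adjusted p = 0.00504, 2-group p 0.0972). Its probe set may also read its close relative HSD3B1. STAR was 13.22 ± 0.28 (SD, n = 4) at 12 h and 13.18 ± 0.07 at 24 h, a difference of -0.04 ± 0.15 (adjusted p = 0.939). TSPO, the mitochondrial translocator protein, rose by 1.06 ± 0.21 (adjusted p = 0.00469) from 8.20 ± 0.29 to 9.26 ± 0.36, above 0 h as well. STARD5, a cytosolic sterol carrier, rose by 0.86 ± 0.18 (adjusted p = 0.00765). FDX1, the ferredoxin that feeds electrons to mitochondrial steroid enzymes, fell by 0.83 ± 0.20 (adjusted p = 0.0146) but not without 12 h replicate 1 (adjusted p = 0.0547), 12 h replicate 4 (0.0526) or 24 h replicate 1 (0.0501). Of 11 measured list genes 2 rose and 2 fell (18.2% each). The orphan receptors that drive these genes were not called, NR5A2 at -0.97 ± 0.51 (adjusted p = 0.309) and NR5A1 at 0.64 ± 0.23 (adjusted p = 0.111, and 0.0402 when probe sets with a mean under 5 were left out). In every other setting NR5A1 was not called either (adjusted p from 0.051 to 0.467).

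INHBA, the subunit shared by activin A and inhibin A, also reached a new low. Its brightest probe set was at 10.70, 8.86, 9.20 and 11.68 at 12 h and at 7.43, 8.08, 7.72 and 7.72 at 24 h. The 12 h follicles were spread over nearly 3 log2 units, with replicates 1 and 4 high, and the 24 h follicles lay close together below them. It changed by -2.38 ± 0.46 (adjusted p = 0.00374, 2-group p 0.115), and by -3.60 ± 0.42 against 0 h (adjusted p = 8e-05). The dimmer INHBA probe set fell too, at -2.39 ± 0.57, but not without 12 h replicate 1 (adjusted p = 0.0537). INHA, the alpha subunit of the inhibins, averaged 10.39 ± 1.28 (SD, n = 4) at 12 h and 9.74 ± 0.72 at 24 h and was not called (adjusted p = 0.61). INHBB, the other beta subunit, lay below the array medians in all 8 follicles. Of 9 measured granulosa markers CYP19A1 and INHBA fell (22.2%) and 0 rose. The log2 of the summed level of the 9 ran from 13.04 to 14.28 at 12 h and from 12.76 to 13.14 at 24 h. Of 8 theca markers CYP17A1 and HSD3B2 fell and HHIP and OGN rose (25% each way). The summed level ran from 13.49 to 13.96 and from 13.32 to 13.41. HHIP, an antagonist of hedgehog ligands (0.95 ± 0.26, adjusted p = 0.0323), lost its call without any array except 12 h replicate 4 and 24 h replicate 4 (adjusted p up to 0.0899). Whether cell numbers took part in these falls was not tested.

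**Figure D2:**
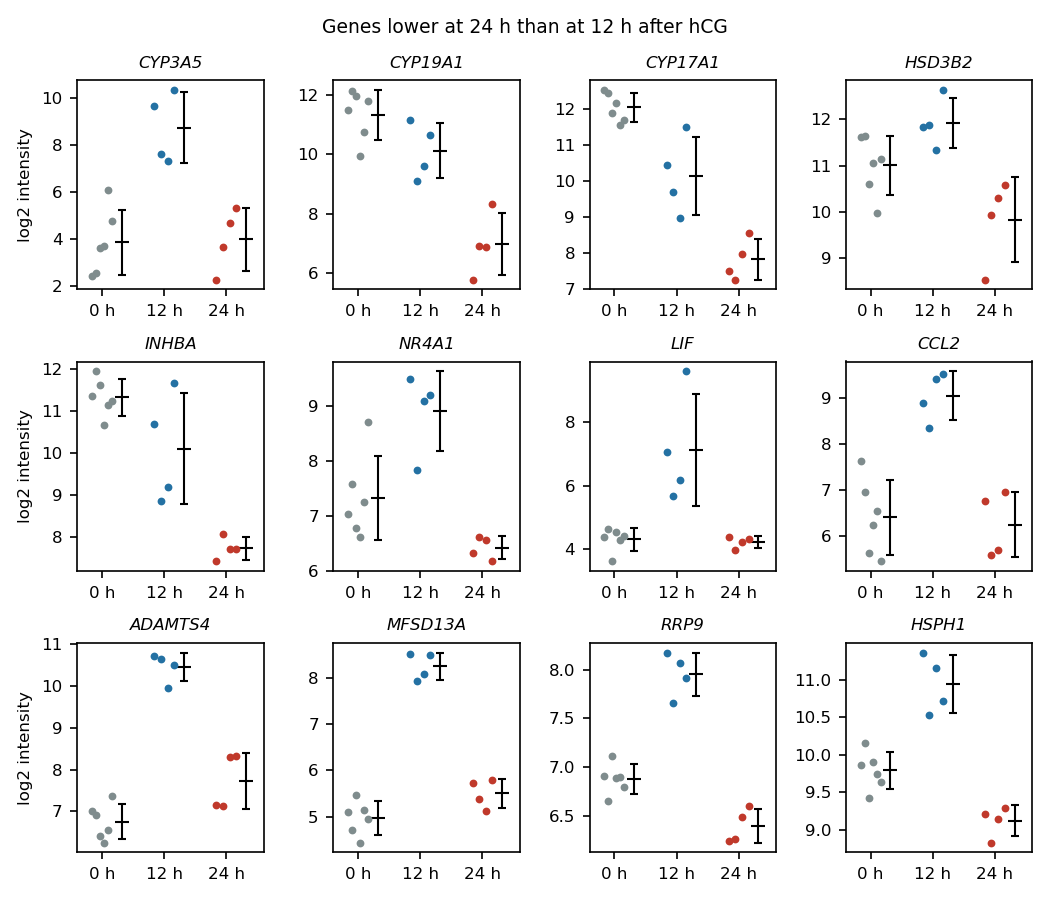
Log2 intensity (y axis) of 12 genes that were lower at 24 h than at 12 h, in every follicle at 0 h (grey, 6), 12 h (blue, 4) and 24 h (red, 4). Each point is 1 follicle, and black bars are the mean and SD of the group. In each panel every 24 h follicle lies below every 12 h follicle. CYP19A1, CYP17A1, INHBA, RRP9 and HSPH1 at 24 h also lie below every 0 h follicle.

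Signalling molecules that stood high at 12 h fell back. LIF, a cytokine of the interleukin 6 family, was at 7.07, 5.66, 6.17 and 9.63 at 12 h, with replicate 4 far above the others, and at 4.37, 3.96, 4.21 and 4.30 at 24 h. Its 0 h mean was 4.30 ± 0.36 (SD, n = 6). CCL2, the chemokine that draws monocytes, was at 8.89, 8.35, 9.41 and 9.51 and then at 6.76, 5.60, 5.70 and 6.96, against 6.41 ± 0.81 at 0 h. The changes were -2.92 ± 0.55 for LIF (adjusted p = 0.0033, 2-group p 0.131) and -2.79 ± 0.45 for CCL2 (adjusted p = 0.00108, 2-group p 0.0493). TNFRSF12A, the receptor of the cytokine TWEAK, fell by 1.83 ± 0.40 (SE, adjusted p = 0.009). Of 34 measured cytokine and chemokine genes and their receptors 5 fell (14.7%) and 0 rose, with a median of -0.28. In the 2-group fit 1 fell. CCL11, an eosinophil chemokine outside that list, changed by -2.87 ± 0.85 (adjusted p = 0.0495), but without any array except 24 h replicate 4 its call was lost (adjusted p up to 0.13).

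Immediate early genes, which are switched on within minutes of a stimulus, behaved alike where they were called. NR4A1, an orphan nuclear receptor, was at 9.49, 7.84, 9.09 and 9.19 at 12 h, with replicate 2 lowest, and at 6.33, 6.62, 6.55 and 6.17 at 24 h. The groups did not overlap, and both NR4A1 probe sets fell in the 2-group fit as well (adjusted p = 0.0478 and 0.042). The brighter one changed by -2.49 ± 0.54 (adjusted p = 0.00857). JUNB, an AP-1 subunit, fell by 1.83 ± 0.44 (adjusted p = 0.015), but without 12 h replicate 1 its adjusted p was 0.0525. Of 20 measured immediate early genes 6 fell (30%) and 0 rose, with a median of -0.40, and without 12 h replicate 1 the number was 3. It was 1 in the 2-group fit. CEBPB, a transcription factor needed for luteinization, fell by 1.24 ± 0.22 (adjusted p = 0.00201) from 11.29 ± 0.35 to 10.05 ± 0.31, against 9.36 ± 0.21 at 0 h. SPRY4, a brake on receptor tyrosine kinase signalling that those receptors induce, fell by 2.08 ± 0.31 (adjusted p = 0.000587), from between 7.00 and 8.11 to between 5.19 and 6.20. Of 12 measured genes of MAP kinase feedback 4 fell (33.3%) and 0 rose, with a median of -0.55. The number was 1 without 12 h replicate 1, 24 h replicate 1 or 24 h replicate 2. It was 2 without 12 h replicate 4 or with the index in the fit, and 0 in the 2-group fit. HBEGF, an EGF-like ligand, fell by 1.28 ± 0.28 (adjusted p = 0.0098), and MAFF, a small Maf transcription factor, by 1.34 ± 0.20 (adjusted p = 0.00064).

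The EGF-like ligand AREG dropped by about as much as CYP19A1 but was not called. It was at 10.06, 9.98, 9.02 and 11.47 at 12 h and at 5.94, 8.54, 6.36 and 7.69 at 24 h. The groups did not overlap, and the difference was -3.0 ± 0.95 (adjusted p = 0.065). AREG passed when 16 was added before log2 (-2.84, adjusted p = 0.00356), with an intensity trend (0.0314) and among the brighter probe sets alone (0.0225). It did not pass with the index in the fit (0.128), in the 2-group fit (0.0995) or with the replicate block (0.0516). Nor did it with array weights (0.0596), quantile normalization (0.0644) or any 1 array left out (0.0583 to 0.181). TNFAIP6, which crosslinks hyaluronan around the oocyte, stood similarly, at -2.06 ± 0.64 (adjusted p = 0.0595), and passed in the same settings (adjusted p from 0.0201 to 0.0289). TNFAIP6 also passed with the index in the fit (0.038) and without 12 h replicate 2 or 24 h replicate 4. It failed in the 2-group fit (0.243), with the replicate block (0.126), array weights (0.0516) or quantile normalization (0.0592), and without any other array (up to 0.197). PTX3, the pentraxin of the cumulus matrix, fell from 10.33 ± 0.48 to 8.43 ± 0.89, by 1.89 ± 0.43 (adjusted p = 0.0117, and 0.0501 without 24 h replicate 1). It was still higher than at 0 h by 2.84 ± 0.40 (adjusted p = 0.000487).

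ADAMTS4, a protease that cuts the matrix proteoglycan versican, was at 10.71, 10.63, 9.95 and 10.50 at 12 h and 7.15, 7.14, 8.29 and 8.32 at 24 h. All follicles of the later time lay below the earlier ones, replicates 3 and 4 least so, and the change was -2.72 ± 0.46 (adjusted p = 0.00149, 2-group p 0.042). Its relative ADAMTS1, which cuts the same substrate, averaged 10.03 ± 0.29 and 10.11 ± 0.12 and differed by 0.08 ± 0.33 (adjusted p = 0.94). ADAMTS5, another versican-cutting enzyme, moved the other way. MMP1, a collagenase, was at 8.19, 7.31, 7.93 and 9.55 and then at 5.10, 4.77, 7.39 and 7.04, and the groups overlapped only at 7.31 and 7.39. It fell by 2.17 ± 0.64 (adjusted p = 0.0456), but its call was lost without any one of 12 h replicates 1, 3 and 4 and 24 h replicates 1 and 2 (adjusted p up to 0.152) and with array weights (0.0545). The inhibitor TIMP1 stayed between 13.32 and 13.50 in all 8 follicles, with a difference of -0.06 ± 0.13 (adjusted p = 0.872).

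Further genes with varied roles fell 5-fold or more. MFSD13A, of the major facilitator family of transporters, was at 8.51, 7.93, 8.07 and 8.48 at 12 h and 5.72, 5.39, 5.13 and 5.79 at 24 h, 2 tight and distant groups. It changed by -2.74 ± 0.26 (adjusted p = 2.8e-05, 2-group p 0.0288), against a 0 h mean of 4.97 ± 0.36. Others were SDS, a serine dehydratase (-2.89 ± 0.58), ALDH1A3, which makes retinoic acid (-2.75 ± 0.39), STEAP1, a metalloreductase of the cell surface (-2.64 ± 0.35), and DIRAS3, a growth-suppressing GTPase (-2.51 ± 0.35). F2RL1, a receptor cut open by proteases, changed by -2.55 ± 0.41 in a dimmer probe set, and both of its probe sets fell. PYROXD1, an oxidoreductase, changed by -2.54 ± 0.50 (2-group p 0.045) in its brightest probe set, while its other 2 were not called. Adjusted p-values of these 6 genes lay between 0.000436 and 0.00536, and none of the 6 overlapped between the groups, as the rule for the largest changes required. Of the panel of known ovarian genes with a named probe set, PGR, the progesterone receptor, fell by 1.70 ± 0.43 (adjusted p = 0.0222), from between 6.40 and 9.56 to between 5.82 and 6.03, but not without 12 h replicate 1 (adjusted p = 0.0575) or 24 h replicate 1 (0.0567).

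Most of the measured genes that build ribosomes fell. Nucleolar factors process ribosomal RNA and assemble it with protein, and 29 of 48 measured (60.4%) fell while 0 rose, against 5.02% of all genes lower. The list median was -0.66, and 47 of the 48 had a negative change. Leaving out 1 array at a time left 21 to 28 lower, the fewest without 24 h replicate 2, and the index covariate left 24. The 2-group fit left 5. RRP9, a protein of the U3 small nucleolar particle, was at 8.17, 7.66, 8.07 and 7.91 at 12 h and 6.24, 6.26, 6.49 and 6.60 at 24 h. NOL6, a nucleolar protein of the small subunit processome, was at 7.85, 7.32, 7.33 and 7.70 and then 6.01, 6.16, 6.01 and 6.38. In both, the gap between the groups was wider than the spread within either. RRP9 changed by -1.55 ± 0.15 (adjusted p = 2.8e-05, 2-group p 0.042) and NOL6 by -1.41 ± 0.16 (adjusted p = 9.82e-05, 2-group p 0.042). UTP15, of the same processome, fell by 1.64 ± 0.33 (adjusted p = 0.00533).

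The median of this list was 0.35 for 12 h against 0 h and -0.34 for 24 h against 0 h. These comparisons share arrays with the one described, and are given side by side only. By the rule that a new low is below both 12 h and 0 h, 11 of the 48 qualified, among them NOL6, against 0.757% of all genes. In contrast, the ribosome's own proteins gave 0 calls of 29 in limma, with a median of 0.02, while 5 of the 29 had an unadjusted p under 0.05, as did 10363 of all probe sets. Without 12 h replicate 3, 1 ribosomal protein gene was called higher and 1 lower. The log2 of their summed level ran from 17.00 to 17.08 at 12 h and from 17.06 to 17.08 at 24 h.

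**Figure D3:**
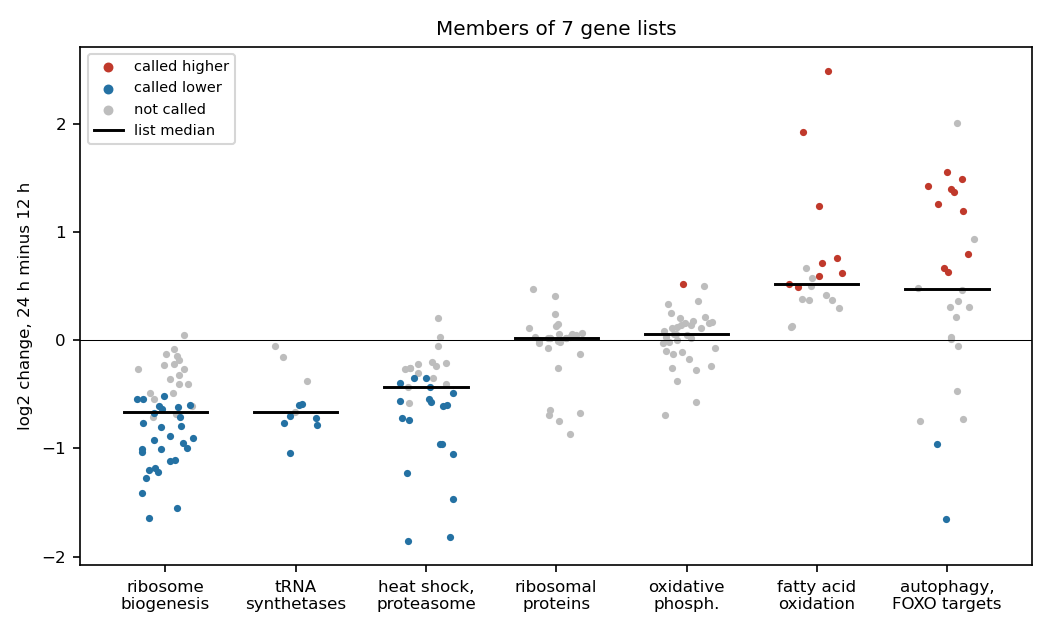
Log2 change from 12 h to 24 h (24 h minus 12 h, y axis) of every measured member of 7 gene lists (x axis), 1 point per gene by its brightest probe set. Blue and red points were called lower and higher, grey points were not called, and black lines are list medians. The ribosome biogenesis median is -0.66 and that of ribosomal proteins 0.02, and all 19 fatty acid oxidation genes lie above 0.

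Genes for loading tRNAs and starting translation fell in part. Of 11 measured aminoacyl-tRNA synthetases, which load tRNAs, 7 fell (63.6%), with a median of -0.66. That number was 3 without 12 h replicate 1, 12 h replicate 4 or 24 h replicate 2, 2 without 24 h replicate 1, and 4 with the index covariate. In the 2-group fit it was 0. WARS1, which loads tryptophan, changed by -1.04 ± 0.29 (adjusted p = 0.0366), but not without 12 h replicates 1, 3 or 4 or 24 h replicates 1, 2 or 3 (adjusted p up to 0.12). MARS2, the mitochondrial enzyme for methionine, fell to a new low in a dimmer probe set by 1.63 ± 0.21 (adjusted p = 0.000273). Of 26 translation factors 7 fell (26.9%) and 2 rose (7.69%), with 4 lower without 12 h replicate 1 or 24 h replicate 2. The 2-group fit left 0 in either direction. The risers EIF2S3 and EIF3F, subunits of initiation factors, lost their calls without any array except 24 h replicate 4, and also 12 h replicates 2 and 3 for EIF3F (adjusted p up to 0.168 and 0.0973). EIF4G1, the scaffold of the cap-binding complex, fell from 8.63 ± 0.41 to 7.45 ± 0.16 (adjusted p = 0.000634), and EIF3B and EIF3J, of the initiation factor that binds the small subunit, by 0.97 ± 0.16 and 0.81 ± 0.12 (adjusted p = 0.00108 and 0.000682).

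Many genes fell on a list that joins chaperones of the cytosol with proteasome subunits. The parts of this list were not counted apart. HSPH1, a nucleotide exchange factor of HSP70, was at 11.36, 10.53, 11.16 and 10.72 at 12 h and at 9.21, 8.83, 9.15 and 9.30 at 24 h. It changed by -1.82 ± 0.27 (adjusted p = 0.000597, 2-group p 0.042), and 4 of its 6 probe sets fell. HSPA4L, of the same HSP110 family, fell by 1.86 ± 0.37 (adjusted p = 0.00479), with 0 h at 5.72 ± 0.32. DNAJB1, a co-chaperone that stimulates HSP70, fell by 1.47 ± 0.36 (adjusted p = 0.0181, but 0.0692 without 12 h replicate 1). Of 34 heat shock and proteasome genes 19 fell (55.9%) and 0 rose, with a median of -0.43. The number was 10 without 12 h replicate 1, 11 without 24 h replicate 1, 12 without 24 h replicate 2 and 14 with the index covariate. In the 2-group fit it was 1. Of 28 genes of endoplasmic reticulum folding and the unfolded protein response 8 fell (28.6%) and 0 rose (median -0.23). There were 5, 3, 2, 2 and 4 left without 12 h replicates 1 and 4 and 24 h replicates 1, 2 and 3, each in turn. The index covariate left 4 and the 2-group fit 0. MANF, a secreted stress protein of that compartment, changed by -0.84 ± 0.20 (adjusted p = 0.0154), but not without 12 h replicate 4 (0.0532), 24 h replicate 1 (0.0517) or 24 h replicate 2 (0.0523).

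**Figure D4:**
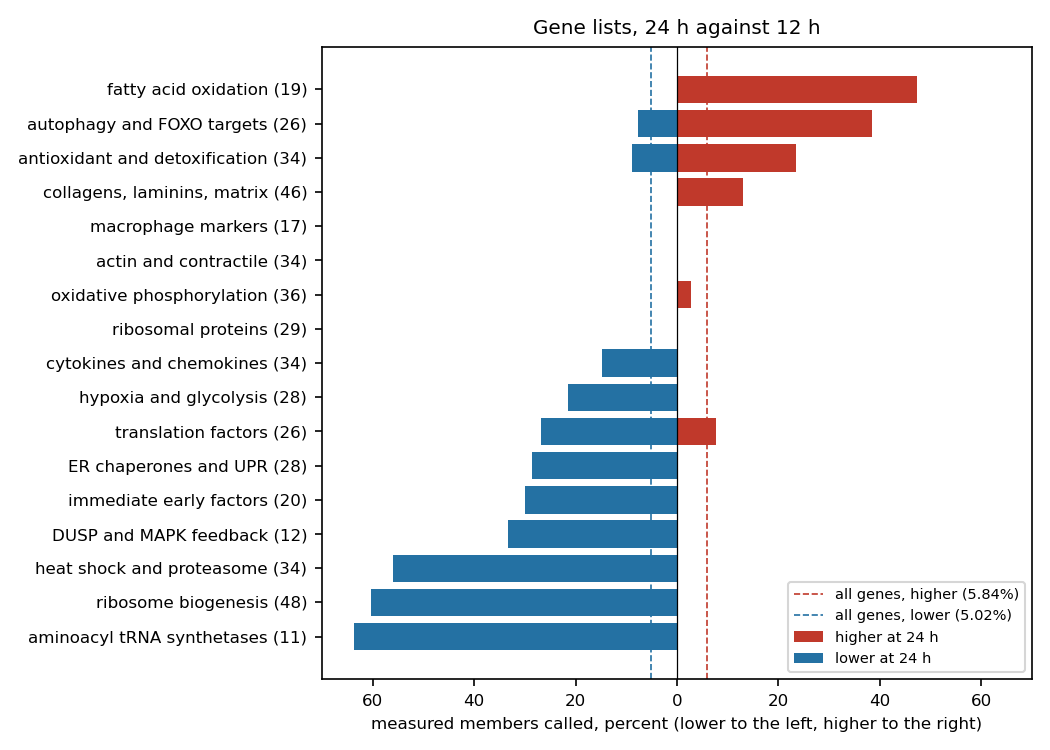
Share of measured members called in the 24 h against 12 h comparison (x axis, percent), lower to the left in blue and higher to the right in red, for 17 gene lists (y axis, number measured in parentheses). Dashed lines are the shares over all 14132 genes, 5.02% lower and 5.84% higher. The synthetases, ribosome biogenesis and heat shock lists reach furthest to the left, and fatty acid oxidation furthest to the right.

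Of 28 measured hypoxia and glycolysis genes 6 fell (21.4%) and 0 rose, while 15 of the 28 changes were positive and the list median was 0.01. The 2-group fit left 0 fallers. SLC2A1, the glucose transporter GLUT1, fell from 6.76 ± 0.55 to 5.50 ± 0.28, by 1.26 ± 0.25 (adjusted p = 0.00469). HK2, the hexokinase that traps glucose, fell by 1.23 ± 0.27 (adjusted p = 0.009) and ENO2, an enolase, by 0.83 ± 0.15 (adjusted p = 0.00291). Of 23 genes of nucleotide, polyamine and one-carbon synthesis 5 fell (21.7%) and 2 rose, with a median of -0.19, and 3 fell without 24 h replicates 1 or 3 and 1 rose without any one array. CTPS1, which makes CTP for nucleic acids, fell by 1.40 ± 0.23 (adjusted p = 0.00113), and its isoform CTPS2 rose by 1.05 ± 0.18 (adjusted p = 0.00142). CTPS1 was at 9.08, 9.09, 8.38 and 9.44 and then 7.39, 7.47, 7.55 and 8.00, CTPS2 at 7.34, 7.84, 7.40 and 7.50 and then 8.44, 8.65, 8.46 and 8.75, so each gene separated the groups, in opposite directions. AMD1 and SRM, successive enzymes of polyamine synthesis, fell by 0.98 ± 0.13 (adjusted p = 0.000273, 2-group p 0.0478) and 0.88 ± 0.20 (adjusted p = 0.0113). FASN, the fatty acid synthase, fell by 0.76 ± 0.17 (adjusted p = 0.00964) and SREBF1, a transcription factor that induces it, by 0.83 ± 0.17 (adjusted p = 0.00655). Of 17 genes of cholesterol synthesis and uptake SREBF1 and SQLE fell (11.8%) and 0 rose, with a median of -0.33. SQLE, an oxidase of that synthesis, changed by -1.27 ± 0.32 (adjusted p = 0.022), but not without 12 h replicate 1 (0.0723), 12 h replicate 4 (0.0801) or 24 h replicate 1 (0.0829).

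New lows, below both 12 h and 0 h, numbered 107 of the 14132 genes (0.757%) and 262 probe sets. The latter count was 136, 174 and 166 without 24 h replicates 1, 2 and 3. Of 32 measured genes of replication and S phase entry 1 fell and 1 rose (3.12% each), and of 26 mitosis genes 1 was a new low and 2 were new highs. The riser POLA1, a DNA polymerase subunit, kept its call only without 12 h replicate 2 or 24 h replicate 2 (adjusted p otherwise up to 0.12). Genes named for the size of their new low follow. SKP2, the ubiquitin ligase subunit that marks the inhibitor p27, was at 8.33, 7.77, 7.87 and 8.91 at 12 h and 5.93, 6.37, 6.36 and 6.79 at 24 h, with all 3 probe sets lower. It changed by -1.86 ± 0.32 (adjusted p = 0.00197), and by -2.30 ± 0.30 against 0 h (adjusted p = 0.000242). UBE2S, which extends ubiquitin chains for the anaphase-promoting complex, fell by 1.28 ± 0.23 (adjusted p = 0.00247), and E2F3, a transcription factor of S phase entry, by 1.38 ± 0.20 (adjusted p = 0.000597). FKBP4, a cochaperone of steroid receptors, fell by 1.03 ± 0.17 (adjusted p = 0.00132). TRIB2, a pseudokinase, fell by 1.36 ± 0.29 (adjusted p = 0.00719) in a dimmer probe set, and 2 of its 4 probe sets were called. The chloride channel gene CLCN2 changed by -1.39 ± 0.30 and GFAP, a filament protein known from astrocytes, by -1.36 ± 0.25 (adjusted p = 0.00772 and 0.00247). Over 26 measured mitosis genes, 1 fell and 2 rose, with a median of -0.14. The faller, the kinase-binding subunit CKS2, lost its call without any array except 12 h replicates 2 and 3 (adjusted p up to 0.152), and BUB3, of the spindle checkpoint, rose by 0.68 ± 0.11 (adjusted p = 0.00141). MKI67, a marker of cycling cells, differed by 0.35 ± 0.33 (adjusted p = 0.634).

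Genes higher at 24 h than at both 12 h and 0 h numbered 119 (0.842%), and 242 probe sets. The latter count was 116, 151 and 150 without 24 h replicates 1, 2 and 4. PDK4, the kinase that shuts off pyruvate dehydrogenase and so spares glucose, was at 6.73, 6.52, 5.96 and 7.36 at 12 h and at 9.08, 9.24, 9.47 and 8.77 at 24 h. Every 24 h follicle was above every 12 h follicle, with a gap of over 1 log2 unit, and the 0 h mean was 7.59 ± 0.38 (SD, n = 6). It rose by 2.49 ± 0.34 (adjusted p = 0.00032, 2-group p 0.042), 5.63-fold, and by 1.54 ± 0.31 against 0 h (adjusted p = 0.00765).

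Of 11 measured ABC transporters of the A subfamily, which move lipids across membranes, ABCA9 and ABCA6 rose by their brightest probe set (18.2%, against 5.84% of all genes), and 9 were not called. In the RefSeq gene table of the T2T-MMU8v2.0 assembly, ABCA8, ABCA9, ABCA6, ABCA10 and ABCA5 follow each other on chromosome 16 in this order with no other protein-coding gene between them. ABCA9 was at 5.98, 5.60, 5.58 and 5.49 at 12 h and 8.31, 7.93, 8.01 and 7.71 at 24 h. ABCA6 was at 5.96, 6.82, 5.10 and 5.66 at 12 h and 7.49, 7.78, 7.62 and 7.60 at 24 h. Neither gene overlapped between the times, and both were also higher than at 0 h (6.36 ± 0.39 and 5.12 ± 0.36). ABCA9 rose by 2.33 ± 0.22 (adjusted p = 2.16e-05, 2-group p 0.0288) and ABCA6 by 1.73 ± 0.31 (adjusted p = 0.00229, 2-group p 0.0719). ABCA8 rose by 2.45 ± 0.39 (adjusted p = 0.000974) in a dimmer probe set and in 2 of 4 in all, while its brightest, between 11.38 and 12.29 in the 8 follicles, differed by -0.11 ± 0.21 (adjusted p = 0.834). ABCA5, at 0.88 ± 0.27 (adjusted p = 0.0595), and ABCA10, at 1.58 ± 0.65 (adjusted p = 0.174), were not called. The subfamily and its order were looked at after values of ABCA9 and ABCA6 were seen.

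Other new highs came from several classes. RNASE4, a secreted ribonuclease, was at 5.80, 7.10, 6.26 and 6.68 at 12 h and 9.08, 8.77, 8.39 and 9.01 at 24 h in a dimmer probe set, and both of its probe sets rose. GPRC5B, an orphan receptor, was at 7.49, 7.20, 7.41 and 6.67 and then 8.89, 9.34, 8.86 and 8.84, again in a dimmer probe set, and all 3 rose. Neither gene overlapped between the times. RNASE4 changed by 2.35 ± 0.36 (adjusted p = 0.000701, 2-group p 0.042) and GPRC5B by 1.79 ± 0.27 (adjusted p = 0.000663, 2-group p 0.042). LDAF1, which helps form lipid droplets, was at 5.50, 6.51, 5.26 and 5.08 and then 7.83, 7.97, 7.55 and 7.69, a change of 2.17 ± 0.27 (adjusted p = 0.000174, 2-group p 0.0478). HIF3A, of the hypoxia-inducible factor family, rose by 1.64 ± 0.30 (adjusted p = 0.00249), and CITED2, which competes with HIF1A for coactivators, by 1.49 ± 0.19 (adjusted p = 0.000174). NUPR1, a stress-induced chromatin protein, rose by 1.43 ± 0.23 (adjusted p = 0.000931) and CDC25B, a phosphatase that activates mitotic kinases, by 1.18 ± 0.18 (adjusted p = 0.000597, 2-group p 0.0478). THSD7A, a thrombospondin repeat protein, rose by 1.51 ± 0.27 (adjusted p = 0.00216) and APCDD1, a Wnt inhibitor at the cell surface, by 1.52 ± 0.34 (adjusted p = 0.0105). SEMA3C, a secreted guidance cue, rose by 1.08 ± 0.20 (adjusted p = 0.00326). EFEMP1, a fibulin of the matrix (1.27 ± 0.37, adjusted p = 0.0432), CEMIP, which breaks down hyaluronan (1.83 ± 0.53, adjusted p = 0.0447), and SPHKAP, an anchor of protein kinase A (1.53 ± 0.41, adjusted p = 0.0293), rose too. EFEMP1 lost its call without any array except 12 h replicate 2, CEMIP without any except 12 h replicate 4, and SPHKAP without 12 h replicates 1 or 3 or 24 h replicates 1, 2 or 4 (adjusted p up to 0.127, 0.136 and 0.089).

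**Figure D5:**
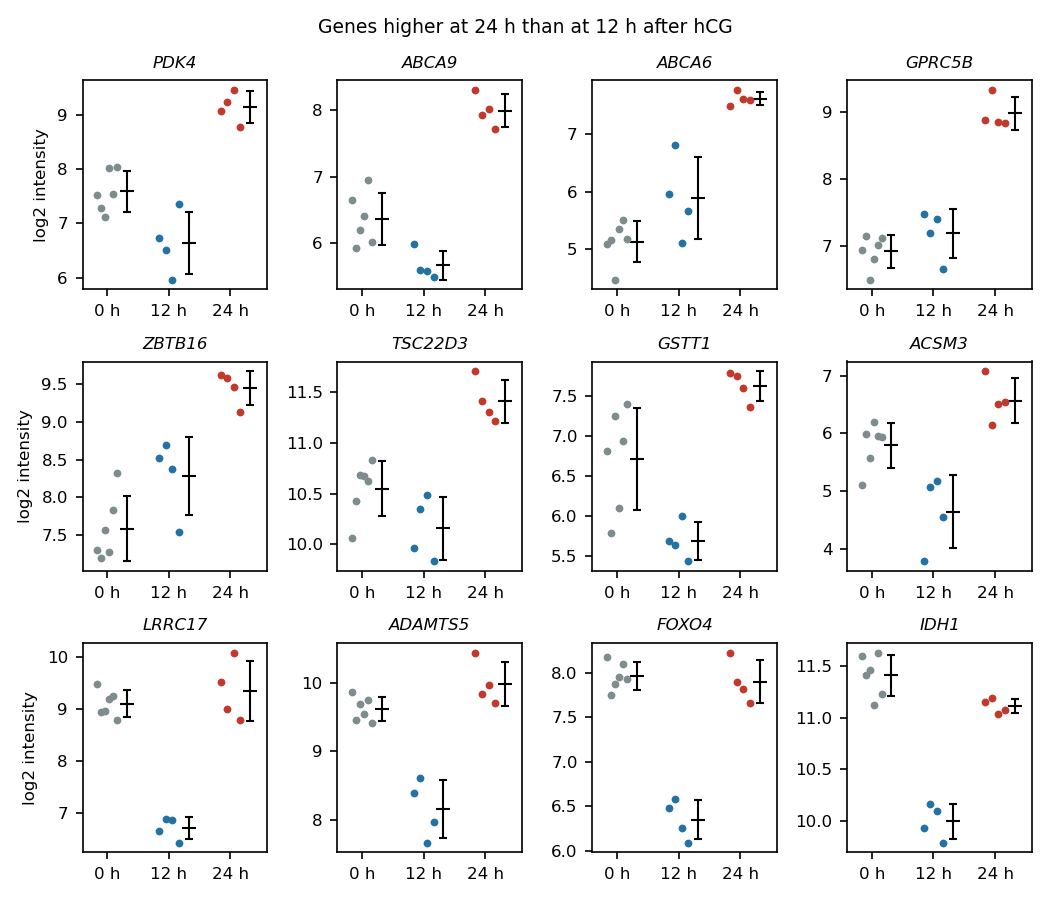
Log2 intensity (y axis) of 12 genes that were higher at 24 h than at 12 h, in every follicle at 0 h (grey, 6), 12 h (blue, 4) and 24 h (red, 4). Each point is 1 follicle, and black bars are the mean and SD of the group. PDK4, ABCA9, ABCA6, GPRC5B, ZBTB16, TSC22D3 and GSTT1 passed the test against 0 h too, while ACSM3, LRRC17, ADAMTS5, FOXO4 and IDH1 at 24 h did not.

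Some glucocorticoid-responsive genes were among the new highs, while as many of their list fell. TSC22D3, the anti-inflammatory leucine zipper GILZ, was at 9.96, 10.35, 10.49 and 9.83 at 12 h and 11.71, 11.41, 11.31 and 11.22 at 24 h, with 0 h at 10.55 ± 0.27. ZBTB16, a zinc finger repressor, was at 8.53, 8.69, 8.38 and 7.54 at 12 h, with replicate 4 lowest, and 9.63, 9.59, 9.46 and 9.14 at 24 h. Both separated the groups, with changes of 1.25 ± 0.17 (adjusted p = 0.000311, 2-group p 0.0575) and 1.17 ± 0.25 (adjusted p = 0.00821, 2-group p 0.0986). With PDK4, which glucocorticoids also induce, 3 of 17 list genes rose (17.6%, against 5.84% of all genes) and all 3 were new highs. MT1X, DUSP1 and FKBP4 fell (17.6%, against 5.02% of all genes). The number falling was 1 without 12 h replicate 1, 24 h replicate 1 or 24 h replicate 2. DUSP1, a phosphatase that shuts off MAP kinases, overlapped between the times (-1.27 ± 0.35, adjusted p = 0.0357) and lost its call without any array except 12 h replicate 3 and 24 h replicate 4 (adjusted p up to 0.126). HSD11B1, the enzyme that makes active glucocorticoid, was at 8.63, 11.18, 7.24 and 10.30 at 12 h and 10.73, 11.39, 10.65 and 10.67 at 24 h, which overlap. It differed by 1.52 ± 0.58 (adjusted p = 0.136), and against 0 h by 5.46 ± 0.53 (adjusted p = 1.23e-05).

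Genes of fatty acid oxidation, the burning of fat in mitochondria and peroxisomes, rose in part and none fell. Of 19 measured genes 9 were called higher (47.4%) and 0 lower, all 19 changes were positive, and the median was 0.52, against 5.84% and 0.02 over all genes. The number was 5 without 12 h replicate 3 or 24 h replicate 1, 4 with the index covariate, and 2 in the 2-group fit. ECH1, an enzyme that handles unsaturated fatty acids, was at 7.15, 6.98, 6.94 and 7.06 at 12 h and 8.05, 8.46, 8.53 and 8.05 at 24 h, with no overlap and a change of 1.24 ± 0.16 (adjusted p = 0.000226, 2-group p 0.0453). ACSM3, which activates medium-chain fatty acids, was at 3.78, 5.07, 5.17 and 4.55 and then 7.08, 6.14, 6.50 and 6.54 in its brighter probe set, a change of 1.92 ± 0.31 (adjusted p = 0.00103, 2-group p 0.063). Its dimmer probe set changed by 3.20 ± 0.28 (2-group p 0.042), from below the array medians. Side by side, the list median was -0.51 for 12 h against 0 h and 0.11 for 24 h against 0 h, and PDK4 was its 1 new high. IDH1, which makes NADPH in the cytosol, was at 9.93, 10.17, 10.10 and 9.79 at 12 h and 11.15, 11.19, 11.04 and 11.07 at 24 h, against 11.41 ± 0.20 at 0 h. It rose by 1.11 ± 0.17 (adjusted p = 0.000766, 2-group p 0.042), and ME1, the cytosolic malic enzyme that also makes NADPH, by 0.82 ± 0.19 (adjusted p = 0.0121). Subunits of oxidative phosphorylation gave 1 call of 36, with a median of 0.06. It was NDUFV1 of complex I (0.52 ± 0.12, adjusted p = 0.0135), not called with the index covariate (adjusted p = 0.062), and 2 were called without 24 h replicate 4 or 12 h replicate 3.

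FOXO factors act when growth signalling is low. In a list that joins their targets with autophagy genes, more genes rose than fell. Of 26 measured, 10 were higher (38.5%) and 2 lower, with a median of 0.47, and 8 to 11 stayed higher with 1 array left out. The 2-group fit left 2 higher and 0 lower. FOXO4, a member of the FOXO family itself, was at 6.48, 6.58, 6.26 and 6.09 at 12 h and 8.23, 7.90, 7.82 and 7.66 at 24 h, over 1 log2 unit apart, with 0 h at 7.97 ± 0.16. It rose by 1.55 ± 0.19 (adjusted p = 0.000133, 2-group p 0.042). SESN1, a sestrin that restrains mTORC1, rose by 1.42 ± 0.21 (adjusted p = 0.000562) to a new high. CAT, the catalase that destroys hydrogen peroxide, rose by 1.37 ± 0.24 (adjusted p = 0.00218). TRIB1, a pseudokinase of the same list, fell by 1.65 ± 0.34 (adjusted p = 0.00644). So did TP53INP2, which helps form autophagosomes (-0.96 ± 0.23, adjusted p = 0.0171), but not without 12 h replicate 4 or 24 h replicates 1 or 3 (adjusted p up to 0.0575). Autophagy genes, counted in that list or not, went both ways. ATG13 (0.56) and ATG16L2 (2.15) were called higher and ATG101 (-0.92, adjusted p = 0.00152) lower. ATG5 (-0.05), ATG7 (0.31) and BECN1 (0.03) were not called. ATG16L2 lost its call without any one of 24 h replicates 1, 2 and 3 (adjusted p up to 0.0823). TNFSF10, the death ligand TRAIL, outside that list, rose by 1.69 ± 0.28 (adjusted p = 0.00122).

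Detoxifying enzymes rose in part. GSTT1, a glutathione transferase, was at 5.68, 5.64, 6.00 and 5.43 at 12 h and 7.78, 7.74, 7.59 and 7.36 at 24 h, close within and far between the times. It rose by 1.93 ± 0.27 (adjusted p = 0.000412, 2-group p 0.0419), and against 0 h by 0.91 ± 0.24 (adjusted p = 0.0477). Of 34 antioxidant and detoxification genes 8 rose (23.5%) and 3 fell (8.82%), with a median of 0.31. The number rising was 4 without 12 h replicate 1 or 24 h replicate 1 and 5 with the index covariate. In the 2-group fit it was 1. The number falling was 1 without 12 h replicates 1 or 4 or 24 h replicates 1 or 2, and 0 with the index covariate. The fallers were MT1X, a metallothionein (-1.82 ± 0.44), GSTA1, a glutathione transferase also known to act on steroids (-1.70 ± 0.41), and GCLM, of glutathione synthesis (-0.40 ± 0.11). MT1X lost its call without 12 h replicate 1 (adjusted p = 0.064), 24 h replicate 1 (0.0634) or 24 h replicate 2 (0.0518), and GSTA1 without 12 h replicate 4 (0.0501). GCLM lost its call without any array except 12 h replicate 3 (adjusted p up to 0.115). Both MT1X and GSTA1 belong to families whose members can share a probe set.

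Several genes that were low at 12 h were back beside their 0 h level at 24 h. LRRC17, a secreted leucine-rich repeat protein, was at 6.65, 6.88, 6.86 and 6.42 at 12 h and at 9.53, 9.01, 10.09 and 8.79 at 24 h, with 0 h at 9.11 ± 0.25 (SD, n = 6). ADAMTS5 was at 8.40, 8.62, 7.67 and 7.98 and then 10.44, 9.84, 9.97 and 9.70, with 0 h at 9.62 ± 0.18. SIMC1, a protein that binds SUMO, was at 9.07, 9.11, 9.08 and 8.50 and then 11.21, 11.13, 10.83 and 10.73, with 0 h at 10.92 ± 0.38. In all 3 the 12 h follicles form the low group and the other 2 times lie together. The rises were 2.65 ± 0.28, 1.82 ± 0.21 and 2.04 ± 0.21 (adjusted p = 5.53e-05, 9.82e-05 and 4.69e-05, 2-group p 0.042, 0.0478 and 0.042). All 4 ADAMTS5 probe sets rose. ADAMTS18, of the same protease family, was at 5.27, 6.67, 4.67 and 6.00 and then 7.63, 8.27, 8.76 and 8.17, with 0 h at 7.01 ± 0.76. Its 24 h follicles all lay above the 0 h mean rather than beside it. It rose by 2.55 ± 0.59 (adjusted p = 0.0125), but with the index in the fit its adjusted p was 0.0597. For the risers that follow, 0 h levels are not given. RAPGEF4, a cAMP-activated exchange factor for RAP1, was at 5.95, 5.68, 5.73 and 5.11 and then 7.39, 8.02, 7.74 and 7.54, a rise of 2.05 ± 0.32 (adjusted p = 0.000855, 2-group p 0.042). PRKAR1B, a regulatory subunit of the other cAMP effector, protein kinase A, rose by 1.71 ± 0.37 (adjusted p = 0.00897). KLHDC8A, a kelch domain protein, rose by 2.16 ± 0.28 in a dimmer probe set, ADGRB3, an adhesion receptor, by 2.27 ± 0.34, and ATL1, which shapes the endoplasmic reticulum, by 2.30 ± 0.44 (adjusted p = 0.000232, 0.000597 and 0.00349). ATL1 had 12 h replicate 3 at 2.80, far below the others at 5.33 to 5.38.

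Of 46 collagen, laminin and matrix genes 6 rose (13%, against 5.84% of all genes) and 0 fell, with a median of 0.19, and 0 of the 46 were called in the 2-group fit. COL4A5 and COL4A6, basement membrane collagen chains, rose by 1.06 ± 0.16 and 1.64 ± 0.30 (adjusted p = 0.000654 and 0.00247). COL4A6 was at 6.48, 6.29, 7.36 and 6.22 and then 8.20, 8.45, 7.93 and 8.31, without overlap and also above 0 h. RECK and TIMP2, inhibitors of metalloproteinases, rose by 0.79 ± 0.16 (adjusted p = 0.00527) and 0.64 ± 0.16 (adjusted p = 0.0205). TIMP2 lost its call without 12 h replicates 1, 2 or 4 or 24 h replicates 1 or 3 (adjusted p up to 0.0627). The receptors of TGF-beta moved apart, with TGFBR1 falling by 0.51 ± 0.11 (adjusted p = 0.00976) and TGFBR2 rising by 0.50 ± 0.11 (adjusted p = 0.00962). TGFBR1 was called in 1 of 3 probe sets and TGFBR2 in both of its own. Of 38 cilium genes 4 rose (10.5%) and 1 fell (2.63%), with a median of 0.41, and 2 rose without 12 h replicate 1 or 24 h replicate 1. The faller AHI1, of the base of the cilium, kept its call only without 12 h replicate 2 or 24 h replicate 4 (adjusted p otherwise up to 0.151). BBS9 and BBS4, of the complex that carries cargo into cilia, rose by 1.35 ± 0.22 (adjusted p = 0.00104, 2-group p 0.045) and 0.91 ± 0.17 (adjusted p = 0.00282).

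Of 105 measured markers of other cell types 4 were called higher (3.81%) and 3 lower (2.86%), near or under the shares of 5.84% and 5.02% over all genes. In limma 0 of 17 macrophage, 0 of 11 neutrophil, 0 of 9 smooth muscle and pericyte and 0 of 4 erythrocyte markers were called, and 0, 1, 1 and 1 of these had an unadjusted p under 0.05. The log2 of the summed macrophage level ran from 11.95 to 13.33 at 12 h and from 12.33 to 13.24 at 24 h, and CD68 differed by -0.76 ± 0.54 (adjusted p = 0.49). Of 14 lymphocyte markers GZMK, a protease of cytotoxic cells, rose by 0.98 ± 0.17 (adjusted p = 0.00199). Of 16 endothelial markers ROBO4 alone was called, at -1.95 ± 0.56 (adjusted p = 0.0417), and lost its call without any array except 12 h replicate 3 and 24 h replicate 2 (adjusted p up to 0.124). PECAM1 differed by 0.24 ± 0.29 and KDR by 0.03 ± 0.36 (adjusted p = 0.726 and 0.981), and the summed endothelial level ran from 11.35 to 11.78 and from 11.32 to 11.73. Of 11 fibroblast markers OGN, a small proteoglycan also on the theca list, rose by 0.99 ± 0.25 (adjusted p = 0.023), but not without 12 h replicates 1, 2 or 4 or 24 h replicates 1, 2 or 3 (adjusted p up to 0.0859). Of 12 oocyte markers ZP4, a protein of the egg coat, fell by 0.69 ± 0.15 (adjusted p = 0.00946), with overlapping groups. Of 11 surface epithelium markers KRT18 rose by 1.00 ± 0.21 (adjusted p = 0.00696) and CDH1 by 2.58 ± 0.69 (adjusted p = 0.0299), while KRT8, the partner of KRT18 in filaments, changed by -2.38 ± 0.61 (adjusted p = 0.0216). CDH1 lay below the array medians throughout and lost its call without 12 h replicates 2, 3 or 4 or 24 h replicates 1 or 4 (adjusted p up to 0.107) and with 16 added to the intensities (0.119). KRT8 lost it without 12 h replicate 1 (0.0527), 3 (0.0596) or 4 (0.0571). Of 9 measured reference genes 2 fell (22.2%) and 0 rose, with a median of -0.03, and 1 fell without 12 h replicate 1 or 24 h replicates 1 or 2. HPRT1, often used as a reference gene, fell by 0.80 ± 0.13 (adjusted p = 0.00126), from between 9.13 and 9.28 to between 8.30 and 8.61. The other faller, the transferrin receptor gene TFRC, changed by -0.88 ± 0.21 with overlapping groups (adjusted p = 0.0158).

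Named genes of other lists had these values. EPHA2, a receptor for ephrins, was at 7.01, 6.98, 6.88 and 7.16 at 12 h and 5.98, 5.63, 5.87 and 5.82 at 24 h and fell by 1.18 ± 0.17 (adjusted p = 0.000436, 2-group p 0.042). THBD, the anticoagulant receptor thrombomodulin, fell by 0.93 ± 0.14 (adjusted p = 0.000701), FOXK2, a forkhead factor, by 0.96 ± 0.15 (adjusted p = 0.000994), and CTSL, a lysosomal protease, by 0.98 ± 0.21 (adjusted p = 0.00868). BIRC2, an inhibitor of cell death, fell by 0.46 ± 0.09 (adjusted p = 0.00309). BCL2A1, another survival protein, fell from 4.71 ± 0.71 to 1.80 ± 1.67, by 2.92 ± 0.77 (adjusted p = 0.0269), but not without 12 h replicates 1 or 3 or 24 h replicates 2 or 3 (adjusted p up to 0.0994). Of 24 measured interferon response genes 1 was called (4.17% higher), with a median of -0.05, and 2 and 3 without 12 h replicates 2 and 3. It was IFIT3, an interferon-induced protein, at 7.89, 7.90, 7.88 and 7.16 and then 9.11, 9.03, 9.07 and 8.41, with replicate 4 lowest at both times, and rose by 1.20 ± 0.22 (adjusted p = 0.00302).

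Transcription factors of several families moved both ways. Of 13 measured clock genes 1 rose and 1 fell (7.69% each), with a median of -0.10. TEF, a clock-controlled transcription factor, rose by 0.97 ± 0.17 (adjusted p = 0.00206) to a new high. BHLHE40, a repressor of clock genes, changed by -1.14 ± 0.28 (adjusted p = 0.0189), but not without 12 h replicate 3 or 24 h replicates 1 or 3 (adjusted p up to 0.0618). The Kruppel-like factor KLF11 rose by 1.11 ± 0.21 (adjusted p = 0.0036) and KLF12 by 0.80 ± 0.18 (adjusted p = 0.0113). Of 43 genes of the KLF, GATA, SOX, FOX and related families 6 rose (14%) and 3 fell (6.98%). The number rising was 2 without 12 h replicates 1 or 4 or 24 h replicates 2 or 3, and 3 without 12 h replicate 2 or 24 h replicate 1. KLF4, which can restrain proliferation, changed by -0.99 ± 0.26 (adjusted p = 0.0255), but lost its call without 12 h replicates 1 or 4 or 24 h replicates 1, 2 or 3 (adjusted p up to 0.0959). NCOA2, a coactivator of steroid receptors, rose by 0.53 ± 0.12 (adjusted p = 0.0111), CDH11, a cadherin of mesenchymal cells, by 0.75 ± 0.17 (adjusted p = 0.00924), and ROBO2, a receptor for SLIT guidance cues, by 0.92 ± 0.20 (adjusted p = 0.00925).

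Other genes known from the ovulatory response had these values. HAS2, which makes hyaluronan, was at 4.54, 4.94, 4.32 and 6.75 at 12 h and 0.34, 4.35, 3.15 and 4.50 at 24 h, a difference of -2.05 ± 0.74 (adjusted p = 0.109). Of 15 measured genes of the cumulus hyaluronan matrix 2 fell (13.3%) and 0 rose, with a median of -0.29, and the 2-group fit left 0. HAS1, another hyaluronan synthase, was called lower, but lost its call without any array except 24 h replicate 2 (adjusted p up to 0.126). PTGIS, the prostacyclin synthase, averaged 3.16 ± 1.17 (SD, n = 4) and 4.41 ± 0.20, a difference of 1.25 ± 0.47 (adjusted p = 0.13). SERPINA3, a protease inhibitor, differed by -0.59 ± 0.36, FLT1, a receptor of VEGF, by -0.36 ± 0.39 and HSD17B1, which makes estradiol, by 0.71 ± 0.39 (adjusted p = 0.394, 0.687 and 0.343). HPGD, the enzyme that breaks down prostaglandins, was called lower, from 9.30 ± 0.77 to 7.66 ± 0.54, a change of -1.63 ± 0.40 (adjusted p = 0.0182), but not without 12 h replicate 4 or 24 h replicate 2 (adjusted p up to 0.0684) or with the index covariate (adjusted p = 0.0588). RUNX1, a transcription factor of luteinizing cells, changed by -1.04 ± 0.25 (adjusted p = 0.0173) and lost its call without 12 h replicate 4 or 24 h replicates 1 or 3 (adjusted p up to 0.0662). Of 18 luteinization factors 4 fell (22.2%) and 1, CITED2, rose (5.56%). There was 1 faller without 24 h replicate 1 and 2 without 24 h replicate 3 or with the index covariate. CYP11A1, LHCGR, FSHR, VEGFA and PTGS2 had no probe set with a single symbol of that name and are not analysed here.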

How the data were processed

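Rhesus macaque follicles were measured on Affymetrix Rhesus Macaque arrays, 22 in all. The deposited table holds linear intensities per probe set; RMA was used per the submitters' processing notes, with its version not given in the sources used here. Intensities were put on a log2 scale here, and no further normalization was done. The 99 control probe sets were left out of the tests. Of the rest, 24956 carried 1 gene symbol, 361 several and 27449 none; symbols came from the platform annotation, and 24616 matched the RefSeq table of T2T-MMU8v2.0 by gene ID, with 0 symbols changed.

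A means model over 5 groups was fitted to 22 arrays with limma 3.58.1 (R 4.3.3; tables made with python 3.11.15), with p-values adjusted by Benjamini-Hochberg over 52766 probe sets. Changes are 24 h minus 12 h with standard errors. Newly higher and new low probe sets passed against both 12 h and 0 h. In simulated data for 24 h against 12 h over 52766 probe sets, 100 changes of each size were placed in probe sets with a mean of at least 5. Each probe set had the same normal spread in all groups. Of these changes, 54% of the 2-fold and 94% of the 4-fold were recovered, with 4 false calls. Recovery at lower levels or with unequal spread was not tested. A gene stands by its brightest probe set. Named genes are the 15 largest changes per direction among bright, non-overlapping probe sets, up to 3 called members per list and direction, 12 new highs and 12 new lows, and a panel of 37 ovarian genes, of which 30 were measured. The members and lists were chosen with earlier results of these data known, and ABCA5 and ABCA10 after their neighbours' values were seen. Alternatives were 16 added before log2, quantile normalization, array weights, an intensity trend, a filter on low means, the RNA index as a covariate, the 2 groups alone, a block by replicate number, and each array left out in turn. The labels give no batch, scan date or detection call.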

Additional observations from a re-analysis of the deposited data

Results flagged for a closer look

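In 406 groups of 4 follicles, 1 group per named probe set and time, the gap of the highest or lowest follicle to the nearest other was compared with the range by Dixon's test at the 95% level, and 29 were past it. Chance gives about 1 in 20. Values are log2 intensities, first of the follicle that stood apart and then the range of the other 3. The 12 h replicate 2 lay below for NR4A1 7.88 against 9.22 to 9.47, in the dimmer of its probe sets, while the report gives the values of the brighter one. The 12 h replicate 2 lay above for TGFBR2 9.82 against 9.59 to 9.61 and CITED2 10.51 against 9.69 to 9.77. The 12 h replicate 3 lay below for ROBO4 3.65 against 4.51 to 4.66, PTX3 9.62 against 10.47 to 10.61, TIMP1 13.34 against 13.48 to 13.50, PHGDH 6.94 against 7.32 to 7.39, BUB3 10.38 against 10.62 to 10.66 and ATL1 2.80 against 5.33 to 5.38. The 12 h replicate 4 lay below for IFIT3 7.16 against 7.88 to 7.90, SIMC1 8.50 against 9.07 to 9.11, ATG16L2 1.01 against 4.70 to 5.45 and SCARA5 1.50 against 5.33 to 5.83. The 12 h replicate 4 lay above for ELOVL6 7.26 against 6.22 to 6.38. The 24 h replicate 1 lay below for GSTA1 3.66 against 5.60 to 5.68. The 24 h replicate 2 lay above for ROBO4 4.12 against 1.79 to 1.90, SFRP2 9.40 against 8.36 to 8.52, APCDD1 10.04 against 9.35 to 9.46, HSD11B1 11.39 against 10.65 to 10.73 and GPRC5B 9.34 against 8.84 to 8.89. The 24 h replicate 3 lay below for RECK 8.41 against 8.66 to 8.67. The 24 h replicate 3 lay above for INHBB 3.87 against 0.82 to 1.17. The 24 h replicate 4 lay below for KRT8 2.41 against 5.60 to 6.11, EIF3J 8.19 against 8.34 to 8.37, HSD17B1 5.87 against 7.47 to 7.61, IFIT3 8.41 against 9.03 to 9.11, ATG16L2 5.75 against 6.21 to 6.30 and KLHDC8A 8.07 against 8.97 to 9.15. The 24 h replicate 4 lay above for ICAM1 4.76 against 4.05 to 4.14.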

How the results depend on the processing

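The 3628 probe sets differing between 24 h and 12 h became 5443 with only means of at least 5 kept, 189 with only the 2 groups fitted and 2021 with a replicate block, and 2199 to 3385 with 1 array left out. The 242 newly higher probe sets became 394 with 16 added before log2, 405 with an intensity trend, 579 with means of at least 5 and 82 with the replicate block, and 116 to 244 with 1 array left out. The 262 at a new low became 415 with the trend, 564 with means of at least 5 and 70 with the replicate block, and 136 to 241 with 1 array left out. The fit of the 2 groups holds no 0 h array and gave no value for the last 2 counts. Array weights, quantile normalization and the index covariate kept all 3 counts within 1.5 times, the first at 3948, 3599 and 2600. Same-numbered 12 h and 24 h arrays correlated at -0.0723, -0.00314, -0.0579 and 0.102 in their deviations, so the numbers were not taken as pairs. Of the 184 called probe sets named, 154 lost their call with the 2 groups alone, 54 with the replicate block and 47 with the index covariate, and 0 of the named reversed with a call. The replicate block took the risers among collagen and matrix genes from 6 to 2 and among the KLF and related factors from 6 to 2, and the fallers among luteinization factors from 4 to 2 and among detoxification genes from 3 to 0. Among other fallers, it took ribosome biogenesis from 29 to 20, heat shock and proteasome from 19 to 11, and tRNA synthetases from 7 to 3. Translation factors went from 7 to 3, endoplasmic reticulum folding from 8 to 3 and MAP kinase feedback from 4 to 1. Immediate early genes stayed at 6. Risers went from 9 to 5 in fatty acid oxidation, from 8 to 4 in detoxification and from 10 to 9 among FOXO targets and autophagy genes. The number of arrays limits precision, and values below the array medians have uncertain folds. The small fit has fewer degrees of freedom than the large one and takes its spread from the 2 groups alone. Which of these took calls away was not tested.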
